A study of Arabidopsis thaliana with 141 samples.

Results

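A set of 85 Arabidopsis genes was followed whose RNA fell within 30 min of flg22, the bacterial flagellin peptide that plants sense as a sign of microbes. The members were chosen from seedlings given 100 nM flg22: a gene had to average at least 10 CPM (counts per 1000000 counts on genes in a library) at 0 min, and its log2 ratio of 30 min to 0 min, with 1 CPM added to both means, had to be -1.5 or lower. Of 32678 loci counted, 12358 passed the limit on level, and 85 of these, 0.688%, passed the limit on the ratio. The values at 0 and 30 min of that time course therefore chose the members and are given only as a description; the other times, 4 sets of stimulated seedlings and a set of adult shoots did not choose them.

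The 141 RNA-seq libraries fell into 49 groups. The time course held 7-d-old wild-type (WT) seedlings in liquid medium, taken 5, 10, 15, 30 and 60 min after 100 nM flg22 or at 0 min with water, with 2 libraries each. The sets B1 to B4 held 7-d-old seedlings of impk36, impk4 and WT, with 3 libraries a group, which had all been given 10 uM of 3MBiP for 15 min, except for a WT group of B1 that was given 0.1% DMSO. They then got no stimulus or, for 1 h, 100 nM pep3, 20 uM ABA or 50 uM MeJA in B1, 2 nM flg22 or wounding with forceps in B2, 40 W UVB in B3 and 10 mM H2O2 in B4, and B2 also held flg22 for 30 min by the sample titles, while the treatment text gives 1 h for every stimulus. The adult set held shoots of 4-week-old plants grown on soil: untreated mpk4, and impk4 sprayed with 100 uM 3MBiP or, as mock, 1% DMSO and taken after 3, 6, 12 and 24 h, beside untreated impk4 at 0 h. MPK3, MPK6 and MPK4 are the mitogen-activated protein kinases that flg22 switches on, and mpk4 is by its name a mutant of MPK4. How the impk36 and impk4 lines were made is not stated in the labels; 3MBiP is known as an inhibitor of kinases engineered to accept it, and no WT adult plants were analysed here, so that in adult impk4 the effect of the compound and that of blocking MPK4 cannot be told apart.

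Plants that sense flg22 shift from growth to defence. Auxin promotes cell expansion in part through SAUR proteins, cytokinin signals through response regulators of which the type-A members dampen the signal, and light acts on growth through phytochromes, PIF factors and B-box proteins. Genes of these pathways, together with genes for sugar and nitrogen use, are known to be held low while defence is active.

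By role, the set held 7 auxin genes, 7 cytokinin genes, 10 light and growth regulators, 9 genes of other hormones and signalling, 5 genes of nutrient and sugar use, 10 other regulators, 21 enzymes and transporters and 16 genes with no assigned function. All 85 were annotated, 48 with a symbol, and 84 code for protein. The auxin genes were SAUR6, SAUR14, SAUR16 and SAUR50, which promote cell expansion, MIR167d, the precursor of a microRNA against auxin response factors, and IAGLU and UGT75B1, which join glucose to auxin and other acceptors. The cytokinin genes were the type-A regulators ARR6, RR5, ARR9 and RR3, the F-box protein KMD4, which promotes the loss of type-B regulators, the transcription factor CRF5 and IPT3, an enzyme of cytokinin synthesis. The light and growth regulators included the B-box proteins BBX14, BBX15 and COL2, the phytochrome kinase substrates PKS1, PKS2 and PKS4, the growth-promoting bHLH factor HBI1, and PIL5, a PIF factor also called PIF1.

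Total counts on genes ranged between 13895596 and 40446916 per library, with a median of 23464725, and reads that mapped to more than 1 place made up 5.38% to 42.4% of a library. MPK4 averaged 1669 ± 60.1 CPM in impk4 and 66.4 ± 2.1 CPM in WT of B2, MPK6 averaged 335 ± 17.5 CPM in impk36 and 60.7 ± 2.0 CPM in WT, and MPK4 averaged 28.3 ± 2.2 CPM in adult mpk4 and 1233 ± 39.6 CPM in untreated adult impk4 (SD, n = 3 each). MPK3 was lower in impk36, with 15.8 ± 1.1 CPM against 66.9 ± 6.9 CPM in WT without stimulus in B2 (log2 change -2.05), 67.8 ± 9.5 CPM against 219 ± 23.7 CPM with UVB (-1.66) and 38.3 ± 4.1 CPM against 199 ± 21.2 CPM with H2O2 (-2.38; SD, n = 3 each). Seedling libraries held leaf and root markers. In the adult shoots 4 of 8 root markers, COBL9, RHD6, PRP3 and EXPA7, had a median under 0.05 CPM, whereas PYK10 had a median of 57.9 CPM and reached 418 CPM, and SCR, GL2 and SHR had medians of 35.5, 12.5 and 10.5 CPM. Of 5 flower markers there, AP1, AP3 and PI stayed at 0.771 CPM or less, AG reached 2.67 CPM and SEP3 9.21 CPM; in seedlings SEP3 reached 167 CPM. In these whole seedlings and shoots, fewer cells of a type and less RNA per cell cannot be told apart. The labels tell of 8 seedlings pooled for each RNA but not of separate cultures for the replicates, so that p-values measure the spread between these samples, which may be technical.

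At 0 min the members had a median of 30.7 CPM and spanned 10.3 to 316 CPM, beside a median of 33.0 CPM for the 12358 genes that passed the limit on level. SAUR6 had 44.7 and 44.2 CPM at 0 min and 1.48 and 1.62 CPM at 30 min, a log2 ratio of -4.15. It was followed by SAUR14 at -4.08, SAUR16 at -3.97, MIR167d at -3.41, SAUR50 at -3.39, BBX15 at -3.38, ARR6 at -3.25, MAKR6 at -3.14, BBX14 at -3.04 and NCED4 at -3.0. Auxin genes thus held the 5 lowest ratios, 10 members reached -3 or lower, and 26 reached -2 or lower. Just inside the limit were NAI1 at -1.52 and HBP1 at -1.51, and just outside it CYP89A9 at -1.4996 and DES1 at -1.49.

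The sequences below are given because these members led the set (miR167d, SAUR14, SAUR16, ARR6), parted from ARR6 under flg22 in B2 (RR5), or carried the evening element described next (BT2, MYBL2). The mature microRNA of MIR167d, at chr1:11137556-11137577 on the plus strand of TAIR10.1 (RefSeq), is printed with its seed, bases 2 to 8, in capitals; the reads counted here are of its longer transcript and not of the microRNA. The promoters are the 250 bases before the annotated start, 5′ to 3′ on the gene's strand, with capitals for matches to the motifs searched.
miR167d: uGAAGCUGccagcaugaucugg
SAUR14, chr4:18125560-18125809, minus strand: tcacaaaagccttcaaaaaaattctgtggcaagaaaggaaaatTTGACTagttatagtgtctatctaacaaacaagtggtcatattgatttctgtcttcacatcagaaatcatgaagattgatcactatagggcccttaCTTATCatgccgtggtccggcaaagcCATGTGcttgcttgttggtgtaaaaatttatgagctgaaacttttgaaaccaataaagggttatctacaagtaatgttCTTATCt
SAUR16, chr4:18129987-18130236, plus strand: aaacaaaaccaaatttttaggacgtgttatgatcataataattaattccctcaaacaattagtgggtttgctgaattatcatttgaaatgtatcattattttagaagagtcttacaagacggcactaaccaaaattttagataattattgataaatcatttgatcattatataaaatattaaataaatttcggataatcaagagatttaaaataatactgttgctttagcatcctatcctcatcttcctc
ARR6, chr5:25254319-25254568, minus strand: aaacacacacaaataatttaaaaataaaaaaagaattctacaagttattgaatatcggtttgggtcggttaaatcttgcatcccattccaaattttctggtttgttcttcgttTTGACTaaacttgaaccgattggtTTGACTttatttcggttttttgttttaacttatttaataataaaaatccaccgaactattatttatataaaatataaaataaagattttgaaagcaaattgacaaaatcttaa
RR5, chr3:17760951-17761200, minus strand: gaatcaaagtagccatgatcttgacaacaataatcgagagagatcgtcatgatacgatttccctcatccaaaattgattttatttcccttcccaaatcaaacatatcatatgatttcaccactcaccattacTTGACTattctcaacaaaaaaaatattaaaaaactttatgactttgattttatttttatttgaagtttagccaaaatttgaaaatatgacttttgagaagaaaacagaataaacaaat
BT2, chr3:17910739-17910988, minus strand: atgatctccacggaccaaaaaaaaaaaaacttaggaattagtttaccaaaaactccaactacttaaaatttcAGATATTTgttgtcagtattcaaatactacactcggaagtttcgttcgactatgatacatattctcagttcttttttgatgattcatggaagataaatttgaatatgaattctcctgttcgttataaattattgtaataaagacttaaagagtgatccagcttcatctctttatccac
MYBL2, chr1:26796533-26796782, minus strand: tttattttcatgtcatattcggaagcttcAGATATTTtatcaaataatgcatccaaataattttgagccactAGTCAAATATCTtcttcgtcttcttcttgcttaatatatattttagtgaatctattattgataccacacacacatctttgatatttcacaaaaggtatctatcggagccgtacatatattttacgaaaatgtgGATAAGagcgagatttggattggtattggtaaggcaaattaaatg

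Motifs were read on both strands between 250 bases before and 50 bases after the start of 84 members, 12202 other genes that passed the limit on level, and 27444 coding genes in all. The evening element AAATATCT, known from clock-regulated genes, was in 10 members (11.9%), beside 5.86% of the other genes at that level and 5.65% of all promoters. BT2, MYBL2, COL2, PKS4, KMD4 and TZF5 were among these 10, and MYBL2 held it at 2 places, of which the one nearer the start overlapped a W-box, TTGACC or TTGACT. The W-box itself was in 25 members (29.8%), 31.9% of the other genes at that level and 32.4% of all promoters. TGGGCC or TGGGCT, known from genes of ribosomal proteins, was in 7 members (8.33%), 28.4% of the other genes and 21.7% of all promoters. CGCGT was in 4 members (4.76%), beside 9.90% and 8.70%; shares of the G-box CACGTG (8.33%, beside 9.29% and 7.68%) and of GATAAG (17.9%, beside 15.7% and 14.6%) lay closer. The E-box variant CACATG was in 15.5% of members, beside 12.3% and 12.9%, and the auxin response core TGTCTC in 9.52%, beside 12.8% and 14.2%. Its variant TGTCGG was in 5.95%, beside 5.65% and 5.12%, and the type-B regulator motif AGATTCG, counted together with AGATACG, in 7.14%, beside 5.46% and 5.34%. SAUR14 and SAUR16 lie close together on chromosome 4, yet SAUR16's window held no match to any of these motifs. A match is a description of letters and not a site that a factor was shown to bind.

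Members were also short genes with few exons. Of 85 members 42 had a single exon (49.4%), against 1168 of the 12231 other genes with gene models (9.55%), and the median number of exons was 2 in members and 6 in the others. Their median coding length was 1036.5 bases, against 1263 bases in the others. Members spread over all 5 nuclear chromosomes, with 21, 19, 15, 11 and 19 on chromosomes 1 to 5. Of the members 23 overlap another locus, 21 of them on the opposite strand, and the library kit does not mark strand, so reads of the partners cannot be told apart. SAUR6 shares 176 bases with a neighbouring SAUR gene on the same strand, and close SAUR copies can share reads.

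In the flg22 time course most members had not yet moved after 5 min. The median log2 ratio to 0 min over the members was 0.02 at 5 min, -0.20 at 10 min, -0.56 at 15 min, -1.78 at 30 min and -2.03 at 60 min, beside 0.04, 0.02, -0.02, -0.23 and -0.26 over the 12358 genes. A ratio of -0.5 or lower was seen in 2 members at 5 min, 20 at 10 min, 48 at 15 min and 79 at 60 min. The share of the 12358 genes at that ratio was not counted. All these ratios are to the 0 min mean, which helped choose the members, so they are not free of that choice. Roles differed in when the values came down: the median of the auxin genes was -0.51 at 10 min and -1.66 at 15 min, while that of the cytokinin genes was 0.36 at 10 min and -0.20 at 15 min. The nutrient and sugar genes stood at -0.52 and -0.94 at these times. Most roles had their lowest median at 60 min, with enzymes and transporters at -2.67 and auxin genes at -3.52. The exceptions were genes of other hormones and signalling (-1.70 at 30 min, -0.94 at 60 min) and other regulators (-1.72 and -1.69). After 30 min, 49 members went lower and 36 were higher at 60 min.

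**Figure D1:**
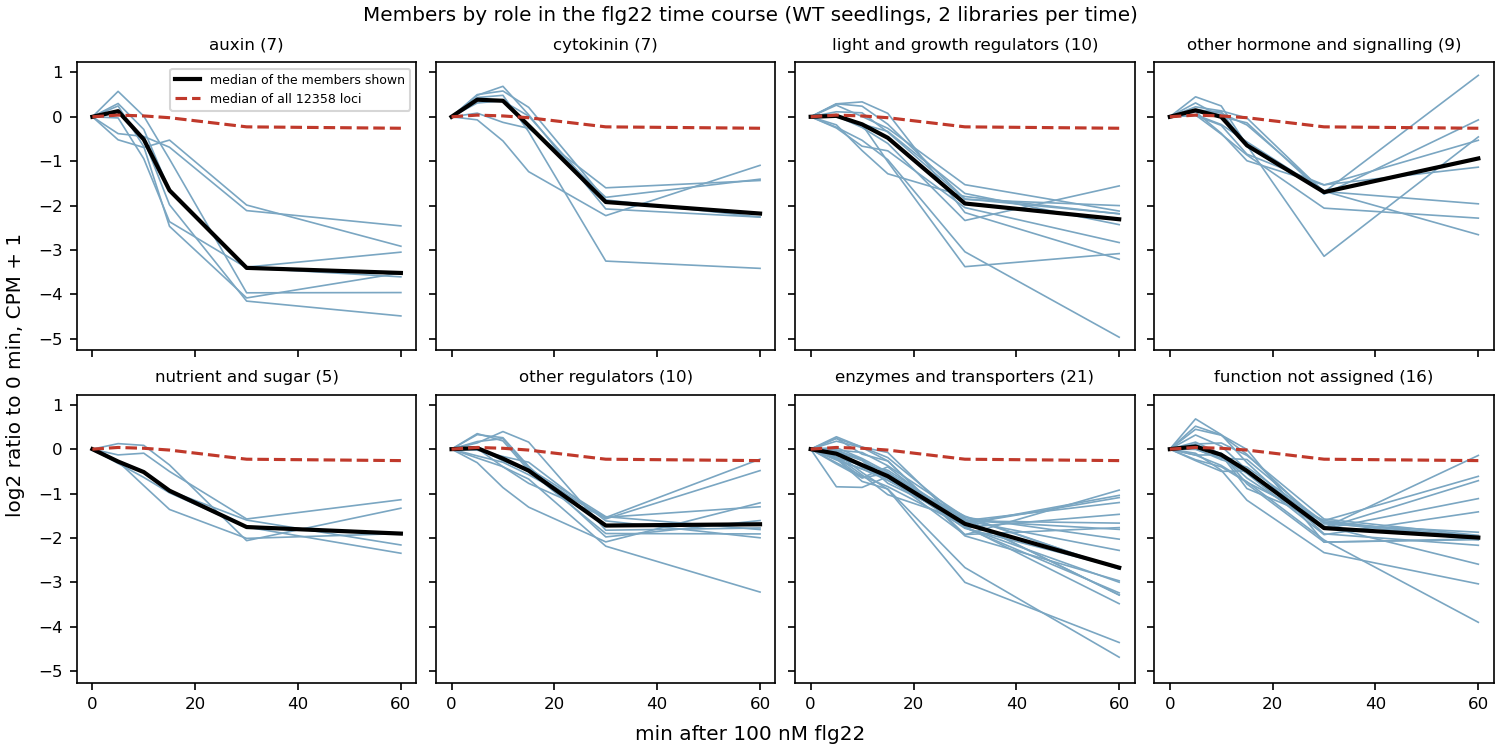
Log2 ratio of mean CPM (with 1 CPM added) to 0 min, by minutes after 100 nM flg22, with each member as a thin line, the median of a role in black and the median of the 12358 genes as a dashed red line (2 libraries a time). The 0 and 30 min values chose the members, and every ratio is to 0 min. At 15 min the median was -1.66 in auxin genes and -0.20 in cytokinin genes, which had stood at 0.36 at 10 min.

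The test of 15 min against 5 min used libraries that did not choose the members. With edgeR's quasi-likelihood test and Benjamini-Hochberg adjustment, 69 of 85 members were lower at 15 min, where 4.27% of all tested genes were, and 0 were higher, where 10.2% were; 0 were higher at an unadjusted p under 0.05 and 0 by DESeq2. SAUR14 had 40.9 and 39.3 CPM at 5 min and 5.38 and 5.16 CPM at 15 min, a log2 change of -2.88 ± 0.14 (SE). MIR167d had 10.6 and 11.9 CPM at 5 min and 1.37 and 1.47 CPM at 15 min (-2.93 ± 0.21, adjusted p = 8.7e-11). Both pairs of libraries at 15 min lay far under both at 5 min. SAUR6 (-2.17 ± 0.09) and SAUR50 (-2.09 ± 0.12) fell too, and so did 6 of the 7 auxin genes, 9 of the 10 light and growth regulators and 5 of the 7 cytokinin genes.

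The type-A response regulators ARR6 and RR5 ran late. ARR6 had 63.8 and 82.8 CPM at 0 min, 96.6 and 102 CPM at 5 min, 101 and 105 CPM at 10 min, 59.2 and 56.5 CPM at 15 min, 6.38 and 7.21 CPM at 30 min and 6.45 and 5.47 CPM at 60 min. RR5 was likewise highest at 10 min, with 108 CPM in both libraries, and stood at 14.3 and 15.7 CPM at 30 min. HBI1 had 71.1 and 85.2 CPM at 0 min, 103 and 94.8 CPM at 10 min, 16.2 and 17.2 CPM at 30 min and 7.50 and 7.59 CPM at 60 min. In all 3 genes the 10 min libraries lay above the 0 min libraries, and the 30 min libraries lay under both. The fall from 0 to 30 min follows from how members were chosen. All 85 had both 30 min libraries under both 0 min libraries, but these same libraries chose them, so the count adds no support.

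Between 15 and 60 min, 70 of 85 members fell, where 30.6% of all genes did, and 8 were higher, where 30.5% were (edgeR). NCED4, a carotenoid-cleaving enzyme, had 36.0 and 38.1 CPM at 15 min and 2.28 and 2.69 CPM at 60 min. BBX14 fell by 4.21 ± 0.11 on the log2 scale and CYP81D11, a cytochrome P450, by 4.80 ± 0.33. MIR167d had 1 read and 0 reads left at 60 min. The first library at 15 min had 23.2% of its reads on more than 1 place. Leaving out any 1 library of these tests left a single library at its time. Each such omission gave fewer lower members at 15 min against 5 min, and fewer higher members at 60 min against 15 min.

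A few members were back at 60 min. EBF2, the F-box protein that removes the ethylene factor EIN3, had 150 and 177 CPM at 0 min, 109 and 95.3 CPM at 15 min, 49.9 and 49.6 CPM at 30 min and 314 and 313 CPM at 60 min; it was the only member above its 0 min level at 60 min. It rose by 1.81 ± 0.07 between 15 and 60 min, beside MYBL2, a repressor of anthocyanin synthesis (0.75 ± 0.07), and the small peptide gene RTFL16 (0.72 ± 0.13). MAKR6, a membrane-associated kinase regulator, had 27.1 and 34.3 CPM at 0 min, 2.43 and 2.74 CPM at 30 min and 24.2 and 20.1 CPM at 60 min. The ABA receptor PYL6 had 19.8 and 22.5 CPM at 0 min, 4.95 and 6.27 CPM at 30 min and 19.7 and 20.5 CPM at 60 min. At 60 min MAKR6 was still under both of its 0 min libraries and PYL6 was at about their level, and both were far above 30 min.

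All 85 members passed the filter on low counts in the time course and B1 to B3. In B4 and the adult set 81 did, because MIR167d was not listed, and KMD4, UGT75B1 and AT4G28290 were listed at 0 in all 42 libraries; these 3 overlap a locus on the opposite strand over most or all of their length.

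The inhibitor alone moved some members before any stimulus. In WT of B1, 22 members were higher with 3MBiP than with DMSO, where 4.62% of all genes were, and 6 were lower, where 4.03% were (edgeR). MAKR6 had 37.4, 33.0 and 37.8 CPM with 3MBiP and 6.82, 5.88 and 7.38 CPM with DMSO, 2.43 ± 0.14 higher on the log2 scale. SAUR16 had 17.5, 16.5 and 20.4 CPM with 3MBiP and 8.02, 7.55 and 7.03 CPM with DMSO. In both genes the groups were far apart. ChlAKR, a chloroplast aldo-keto reductase (2.39 ± 0.39), and CYP81D11 (2.34 ± 0.56) were higher as well, while EBF2 (-0.43 ± 0.08) and PKS2 (-0.62 ± 0.17) were lower. The count of lower members was 3 without the second or without the third DMSO library. Every stimulus below was set against seedlings with 3MBiP and no stimulus. In such WT seedlings many members started lower than at 0 min of the time course, which helped choose them. The median log2 ratio, with 1 CPM added, was -0.75 in B1, -0.80 in B2, -1.11 in B3 and -0.58 in B4. In B2 it ranged from -4.53 to 1.97. There BMY3 had 10.5 CPM and TZF5 3.22 CPM, against 129 and 39.8 CPM at 0 min of the time course. The cause was not tested.

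At 2 nM flg22 after 3MBiP, 66 of 85 members were lower in WT at 30 min, where 21.1% of all genes were, and 6 were higher, where 22.1% were; the median member change was -0.95 and that of all genes -0.02. All 7 auxin genes, 18 of 21 enzymes and transporters and 8 of 9 genes of other hormones fell, beside 6 of 10 light regulators and 5 of 7 cytokinin genes. SAUR6 had 5.52, 5.77 and 4.87 CPM at 30 min and 50.9, 39.3 and 48.1 CPM without flg22 (-2.93 ± 0.14). BBX15 had 10.4, 12.3 and 10.9 CPM at 30 min and 114, 128 and 120 CPM without flg22 (-3.24 ± 0.19). For both, the highest library with flg22 lay far under the lowest without it. MIR167d, with 3, 4 and 15 reads left (-3.64 ± 0.28, adjusted p = 7.9e-14), SAUR14 (-2.93 ± 0.13), MAKR6 (-2.56 ± 0.10), SAUR16 (-2.31 ± 0.18), BBX14 (-2.22 ± 0.15) and KMD4 (-2.11 ± 0.08) fell too.

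Among the type-A members, RR5 parted from the others at that time: ARR6, ARR9 and RR3 were lower and RR5 was higher. ARR6 had 13.8, 10.07 and 12.6 CPM at 30 min and 25.8, 32.1 and 31.5 CPM without flg22, with no overlap. RR5 had 28.5, 25.4 and 29.0 CPM at 30 min and 15.4, 21.1 and 21.9 CPM without flg22, 0.69 ± 0.12 higher, also with no overlap. In the time course at 100 nM, RR5 was at 14.3 and 15.7 CPM at 30 min and at 55.5 and 77.9 CPM at 0 min; dose, inhibitor and starting level differ between the sets. MYBL2 (0.90 ± 0.14) and BT2, a BTB and TAZ domain protein of sugar and nitrate responses (0.40 ± 0.09), were also higher at 30 min in B2.

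At 1 h of 2 nM flg22, 66 members were lower in WT, where 30.6% of all genes were, and 11 were higher, where 29.8% were; the median was -1.05. BBX14 had 7.42, 8.79 and 9.09 CPM at 1 h and 195, 194 and 187 CPM without flg22 (-4.27 ± 0.18). SQP1, annotated as an oxidoreductase of the squalene epoxidase kind, had 0.232, 0.711 and 0.471 CPM at 1 h and 5.67, 7.69 and 6.99 CPM without flg22 (-3.59 ± 0.25). Neither gene's groups came near each other. MIR167d (-5.06 ± 0.33; 4, 0 and 5 reads left), SAUR6 (-3.26 ± 0.14), HBI1 (-2.37 ± 0.14) and ARR6 (-1.61 ± 0.11) were lower, and the beta-amylase gene BMY3 (1.63 ± 0.23), EBF2 (1.35 ± 0.06) and the zinc finger gene TZF5 (1.28 ± 0.13) were higher.

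Set against 30 min, 1 h of flg22 moved members both ways, as it did all genes. At 1 h 28 of 85 (32.9%) were lower, beside 25.3% of all genes, and 23 (27.1%) were higher, beside 24.5%. Their median change was -0.003, beside -0.0008 over all genes. BBX14 (-2.05 ± 0.19), SQP1 (-2.60 ± 0.28), HBI1 (-1.69 ± 0.15) and NCED4 (-1.44 ± 0.20) went on falling. EBF2 had 48.7, 56.2 and 50.6 CPM at 30 min and 334, 301 and 326 CPM at 1 h, a rise of 2.67 ± 0.07.

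Other genes of the same families were counted beside the members. In B2 WT at 1 h, 30.6% of all genes were lower and 29.8% higher. There, 24 of 57 tested SAUR genes outside the set were lower and 11 higher, and all 5 other type-A regulators were lower. Of PIF genes outside the set 7 of 8 were lower and 0 higher, of B-box genes 9 of 21 were lower and 6 higher, and of 20 light-harvesting genes 17 were lower and 0 higher. The Aux/IAA repressors, none of which is a member, gave 6 lower and 8 higher of 25. At 30 min, 21.1% of all genes were lower and 22.1% higher. Of the 57 SAUR genes 22 were lower and 8 higher, and only 1 of 20 light-harvesting genes was lower, with 8 higher. Between 15 and 60 min of the time course, the SAUR genes outside the set gave 12 lower and 21 higher of 55. Of all genes 30.6% were lower there and 30.5% higher.

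The other stimuli in WT gave between 24 and 56 lower members and between 14 and 31 higher ones. The share of all tested genes is given in brackets after each count, and stimuli of a set share their unstimulated libraries. With pep3, a damage peptide of the plant itself, 52 members were lower (30.4% of all genes) and 19 higher (32.2%), with a median of -0.67. SAUR16 had 1.49, 2.25 and 2.57 CPM with pep3 and 17.5, 16.5 and 20.4 CPM without (-2.92 ± 0.17). TZF5 had 11.6, 13.3 and 18.9 CPM with pep3 and 4.24, 4.55 and 5.36 CPM without (1.78 ± 0.20). Both genes' groups were apart, in opposite directions. MAKR6, which fell with flg22, was at 43.4, 49.9 and 62.1 CPM with pep3 and 37.4, 33.0 and 37.8 CPM without (0.67 ± 0.12). Cytokinin genes gave 2 lower and 3 higher of 7 with pep3; at 1 h of flg22 in B2 they gave 6 lower and 0 higher.

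ABA, the drought hormone, gave 42 lower (13.7% of all genes) and 24 higher (16.7%). PYL6 had 0.382, 0 and 0.463 CPM with ABA and 26.8, 35.9 and 29.5 CPM without, and only 7, 0 and 9 reads were left. RD26, a NAC factor of drought responses, had 190, 185 and 185 CPM with ABA and 17.6, 12.8 and 27.0 CPM without (3.35 ± 0.28). These were opposite ends of the set, and HB-12, an ABA-responsive homeobox factor, stood with RD26 (3.65 ± 0.34). HBI1 (-2.05 ± 0.16) and SAUR14 (-1.95 ± 0.16) fell.

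MeJA, the wound hormone, gave 56 lower (16.1% of all genes) and 14 higher (16.1%), with a median of -0.78. Of the 10 light and growth regulators 9 were lower and 0 higher. BT2 had 37.6, 35 and 46.4 CPM with MeJA and 260, 247 and 244 CPM without (-2.52 ± 0.21). NAI1, the bHLH factor for ER bodies, had 215, 223 and 213 CPM with MeJA and 24.03, 25.4 and 23.6 CPM without (3.30 ± 0.11). CYP81D11 was higher by 5.54 ± 0.28, and HBI1 (-2.50 ± 0.17), MAKR6 (-2.42 ± 0.14) and SAUR16 (-2.39 ± 0.16) were lower.

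Wounding gave 46 lower (24.8% of all genes) and 25 higher (28.8%). CAX7, a cation exchanger, had 67.8, 71.9 and 68.5 CPM after wounding and 10.05, 19.4 and 13.2 CPM without (2.38 ± 0.11). PYL6 had 4.54, 4.69 and 3.96 CPM after wounding and 34.8, 33.2 and 33.0 CPM without (-2.86 ± 0.13). MIR167d, with 4.93, 4.69 and 4.82 CPM after wounding and 6.06, 4.496 and 4.89 CPM without, overlapped. Set against wounding in the same set, 1 h of flg22 left 59 members lower (24.8% of all genes) and 7 higher (23.5%). ChlAKR (-6.27 ± 0.19), CYP81D11 (-5.61 ± 0.22), MIR167d (-5.05 ± 0.34) and CAX7 (-3.68 ± 0.13) were lower with flg22, and PYL6 (1.98 ± 0.14) and IPT3 (1.49 ± 0.13) higher.

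UVB gave 41 lower (21.5% of all genes) and 14 higher (19.3%). BBX15 had 29.9, 19.6 and 32.4 CPM with UVB and 91.8, 107 and 94.95 CPM without (-1.88 ± 0.22). BMY3 had 13.7, 13.1 and 9.65 CPM with UVB and 2.43, 3.77 and 4.72 CPM without (1.72 ± 0.19). Both were clear of overlap, with SQP1 lower as well (-2.34 ± 0.24).

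H2O2 gave 24 lower (18.9% of all genes) and 31 higher (21.1%) of 81 tested members, with a median of 0.02. CYP81D11 had 218, 164 and 211 CPM with H2O2 and 5.13, 6.57 and 6.67 CPM without (5.10 ± 0.15). IPT3 had 7.04, 7.89 and 6.04 CPM with H2O2 and 29.3, 24.9 and 24.9 CPM without (-1.82 ± 0.10). SAUR6 (-1.31 ± 0.08) and the amino acid exporter UMAMIT11 (-1.77 ± 0.10) fell, and BMY3 rose by 2.13 ± 0.21.

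Across these 8 WT comparisons, 8 members were lower in every one: SAUR6, SAUR14, SAUR16, SAUR50, BBX14, RR3, the phosphoinositide kinase-like gene PI4K GAMMA 7 and AT3G45210, the last of which was named after its values were seen. Of the 20253 genes tested in all of B1 to B4, 81 were members; the 8 were 9.88% of these, beside 0.36% of the 20253 genes. Lower in 6 or more were 32 of the 81 members (39.5%), beside 5.37% of those genes. The share higher in none was 40.7% in members and 36.4% in those genes, and 58% of members and 37.4% of those genes were lower in at least 1 and higher in another. Comparisons within B1 and within B2 share their unstimulated libraries. AT3G07350, also named after its values were seen, was lower in none. CAX7 was lower in 2 and higher in 6, and CYP81D11 lower in 2 and higher in 5.

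**Figure D2:**
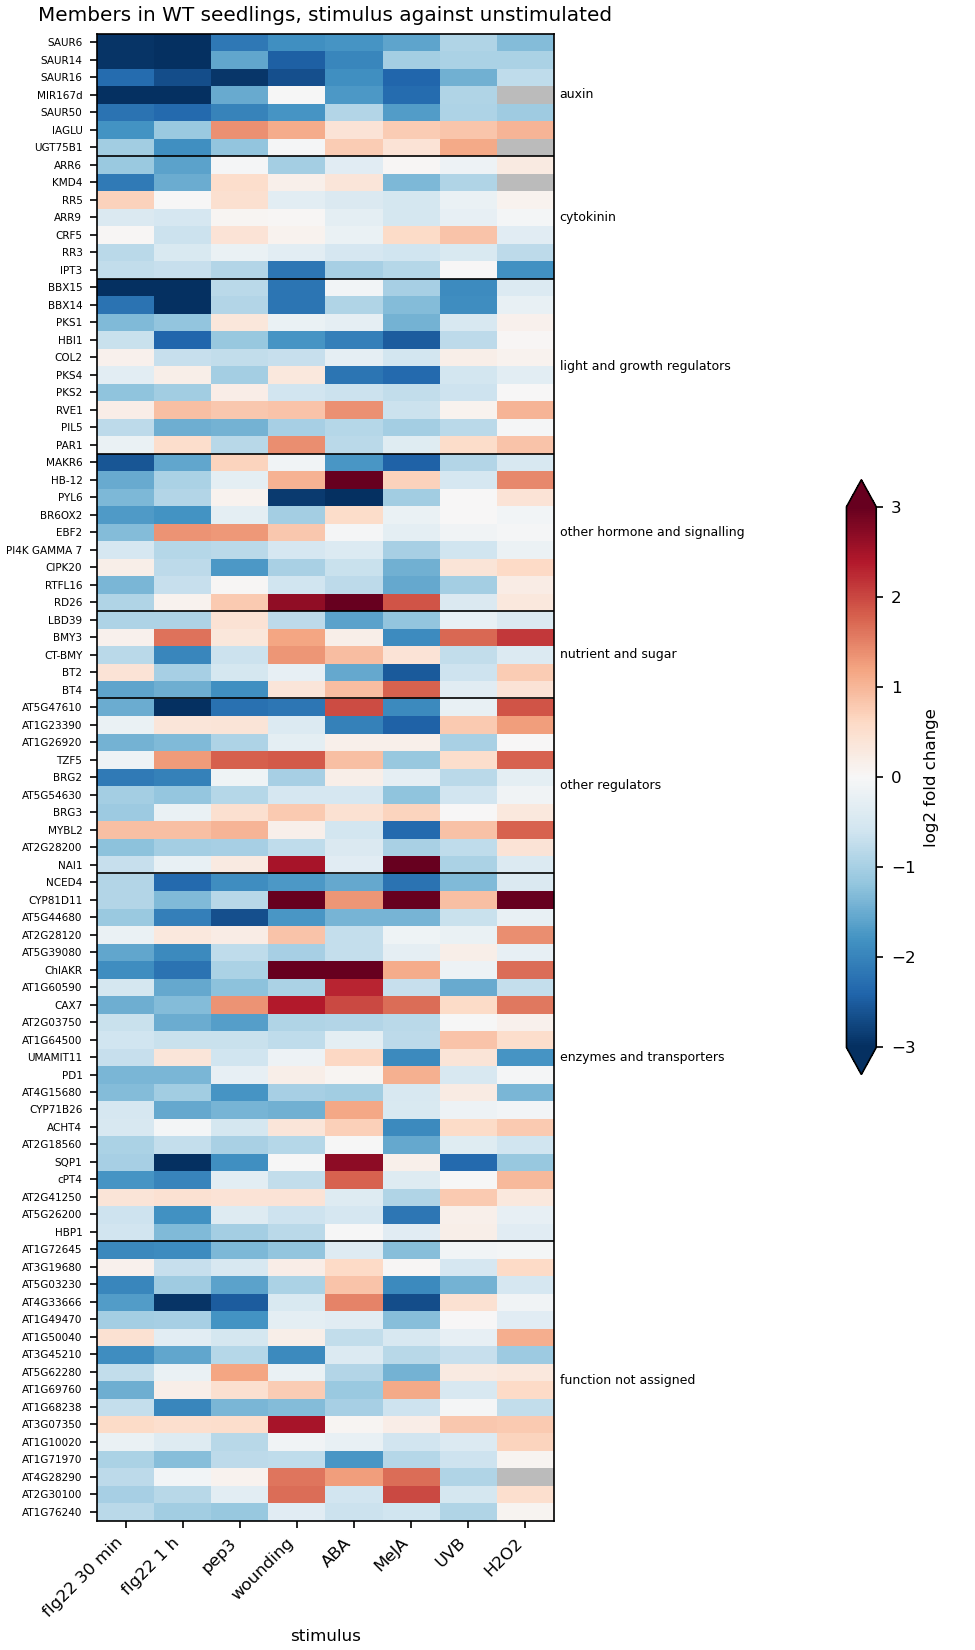
Log2 change of each of the 85 members (down the page, by role) in WT seedlings under 8 stimulus comparisons against seedlings with 3MBiP alone (across), blue for lower and red for higher, with grey where no value could be had. The 4 SAUR genes are lower in all 8 comparisons, and CYP81D11 is red under MeJA, wounding and H2O2, with log2 changes of 5.54, 4.28 and 5.10.

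Without a stimulus the kinase lines differed little from WT in B1 and more in B2, all with 3MBiP. For impk36, B1 gave 4 members lower (2.41% of all genes) and 0 higher (1.15%; 4 at an unadjusted p under 0.05, 0 by DESeq2), and B2 gave 7 lower (16.6%) and 36 higher (14.7%). For impk4, B1 gave 0 lower (0.033%) and 0 higher (0.0471%) by edgeR, with 8 and 1 at an unadjusted p under 0.05 and 0 by DESeq2. B2 gave 7 lower in impk4 (8.24%) and 19 higher (8.38%). In B2, CIPK20, a protein kinase gene, was higher in impk36 (1.37 ± 0.21) and in impk4 (1.04 ± 0.21), while CAX7 was lower in impk36 (-1.01 ± 0.14) and in impk4 (-0.67 ± 0.13). Both lines were set against the same WT libraries. Without any 1 of the 3 WT libraries or of impk36 replicates 2 and 3, B1 gave 1 or 2 lower in impk36, and it gave 1 higher without WT replicate 2 or impk36 replicate 3. Without WT replicate 2, B2 gave 12 higher in impk4.

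Within each line flg22 still lowered most members. At 30 min 69 were lower in impk36 (17.6% of all genes) and 66 in impk4 (18.9%), with 8 (20.5%) and 9 (21.9%) higher. At 1 h 64 were lower in impk36 (28.2%) and 56 in impk4 (28.3%), with 11 (27.6%) and 15 (29.2%) higher. The 8 higher at 30 min in impk36 were 3 without its unstimulated replicate 3 and 5 without its flg22 replicate 2.

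The test of the response itself, the change in the line minus the change in WT, was past the threshold for fewer members. At 30 min in impk36, 10 members had a higher difference (2.46% of all genes) and 2 a lower one (4.14%). KMD4 had 68.4, 73.4 and 64.9 CPM at 30 min against 130, 146 and 131 CPM without flg22 in impk36, and 25.5, 26.4 and 24 CPM against 128, 126 and 119 CPM in WT, a difference of 1.26 ± 0.10. It fell in both lines, and further in WT. IAGLU (1.22 ± 0.19), PYL6 (0.92 ± 0.16), EBF2 (0.87 ± 0.09) and PKS1 (0.87 ± 0.15) also differed. The 2 lower ones came to 1 or 0 without any 1 of 7 of the 12 libraries: replicate 2 of unstimulated WT, replicates 1 and 3 of WT with flg22, and replicates 1 and 2 of impk36 with and without flg22.

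At 1 h in impk36, 19 had a higher difference (8.27%) and 6 a lower one (6.86%). BBX14 had 34.4, 28.8 and 31.6 CPM at 1 h against 218, 231 and 214 CPM without flg22 in impk36, while WT was at 7.42, 8.79 and 9.09 CPM against 195, 194 and 187 CPM (1.64 ± 0.24). MAKR6 had 8.71, 8.77 and 7.99 CPM at 1 h against 51.0, 58.4 and 59.3 CPM without flg22 in impk36, and 9.04, 9.75 and 9.62 CPM against 29.4, 34.1 and 34.6 CPM in WT (-1.0 ± 0.13). BBX14 was held higher in impk36 after flg22, and MAKR6 differed mainly before flg22. KMD4 (1.28 ± 0.10), IAGLU (1.24 ± 0.18), BT2 (1.06 ± 0.13) and HBI1 (1.03 ± 0.19) were on the side of BBX14, and IPT3 (-0.66 ± 0.17) and EBF2 (-0.48 ± 0.09) on that of MAKR6.

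In impk4 at 30 min, 10 members had a higher difference (0.98% of all genes) and 2 a lower one (2.23%). SAUR6 had 11.8, 6.97 and 10.2 CPM at 30 min against 42.7, 43.7 and 45.4 CPM without flg22 in impk4 (0.93 ± 0.19 above WT). The 2 lower ones came to 1 or 0 without any 1 of the 12 libraries, and the 10 came to 6 without replicate 2 of WT with flg22 or replicate 3 of unstimulated impk4. At 1 h, 25 had a higher difference (5.85%) and 0 a lower one (4.6%), by edgeR, with 1 lower at an unadjusted p under 0.05 and 0 by DESeq2. CAX7 had 13.2, 12.2 and 12.0 CPM at 1 h against 8.94, 8.73 and 9.35 CPM without flg22 in impk4, and 4.52, 4.98 and 5.09 CPM against 10.05, 19.4 and 13.2 CPM in WT (2.00 ± 0.20). The change thus had opposite signs in impk4 and WT. Light and growth regulators gave 5 of these 25 and enzymes and transporters 6, and the differences of HBI1 (1.13 ± 0.19), BBX14 (1.08 ± 0.25), IAGLU (1.04 ± 0.17), MAKR6 (0.96 ± 0.12) and SAUR14 (0.89 ± 0.19) were among the 25. MAKR6 had 27.2, 22.7 and 24.2 CPM at 1 h in impk4, above all 3 WT libraries. Leaving out 1 library at a time gave 16 to 24 such members, with 16 without replicate 3 of WT at 1 h. The differences at 30 min and 1 h share the unstimulated libraries, and both lines share those of WT.

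**Figure D3:**
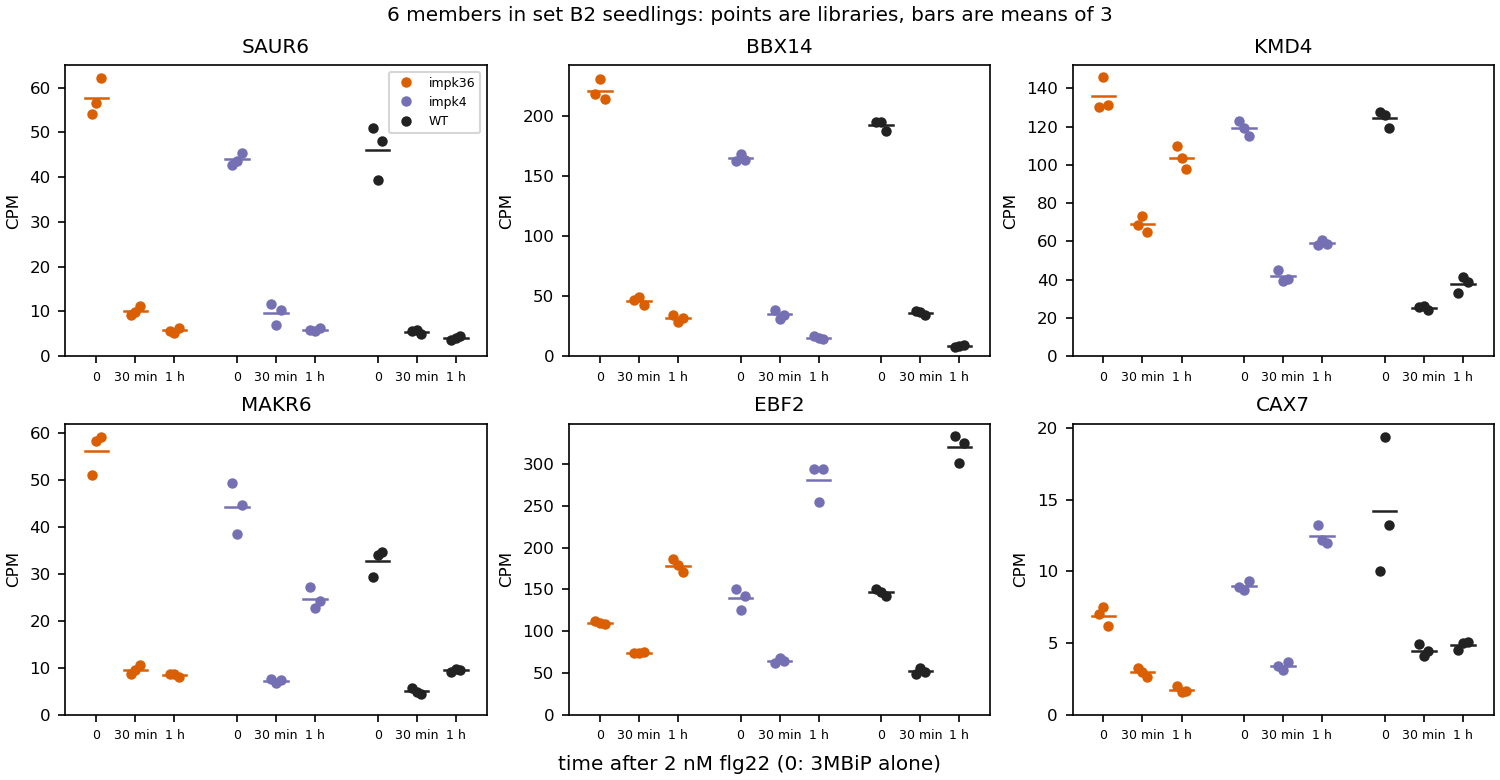
CPM of 6 members in each B2 library, without flg22 and after 30 min and 1 h of 2 nM flg22, in impk36, impk4 and WT (3 libraries a group, all with 3MBiP). KMD4 stays highest in impk36 after flg22, at 64.9 CPM or above, and CAX7 at 1 h is at 11.98 CPM or above in impk4 and at 5.09 CPM or below in impk36 and WT.

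Wounding responses differed from WT in 7 lower (3.77% of all genes) and 6 higher (1.68%) members in impk36 and in 6 lower (4.36%) and 8 higher (3.66%) in impk4. Within the lines wounding lowered 48 members in impk36 (20.9%) and 49 in impk4 (26.9%), and 21 (25.9%) and 23 (31.8%) were higher. RD26 had 62.9, 74.1 and 68.9 CPM after wounding against 26.4, 30.4 and 31.1 CPM without in impk36, and 129, 161 and 144 CPM against 24.8, 23.7 and 23.9 CPM in WT (-1.40 ± 0.20). PYL6 had 8.73, 7.76 and 9.11 CPM after wounding against 24.2, 26.7 and 22.2 CPM without in impk36, and 4.54, 4.69 and 3.96 CPM against 34.8, 33.2 and 33.0 CPM in WT (1.42 ± 0.19). Both genes moved less in impk36, in opposite directions. In impk4 the same difference was -0.80 ± 0.20 for RD26 and 1.26 ± 0.19 for PYL6. In impk36 the lower count was 4 without replicate 1 of wounded WT or of unstimulated impk36. In impk4 the higher count was 5 without replicates 2 or 3 of unstimulated WT, 1 or 2 of wounded WT, or 3 of wounded impk4, 3 without replicate 3 of wounded WT, and 13 without replicate 1 of wounded impk4.

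With pep3 the impk36 response differed from that of WT in 13 lower (8.48% of all genes) and 16 higher (7.66%) members. CRF5 had 5.501, 3.82 and 3.80 CPM with pep3 against 7.66, 9.60 and 9.89 CPM without in impk36, and 11.04, 9.04 and 10.2 CPM against 8.47, 8.78 and 7.85 CPM in WT (-1.39 ± 0.20). ARR6 had 13.2, 10.8 and 12.5 CPM with pep3 against 22.5, 31.0 and 28.7 CPM without in impk36, and 23.0, 21.2 and 30 CPM against 26.3, 29.7 and 28.4 CPM in WT (-1.06 ± 0.22). Both were lower with pep3 in impk36 without overlap, whereas in WT the ARR6 libraries overlapped. BMY3 (1.88 ± 0.47) and the shade-response gene PAR1 (1.75 ± 0.33) differed upward. Within impk36 pep3 gave 48 lower (27.1%) and 18 higher (28.8%). Within impk4 it gave 41 lower (27.5%) and 20 higher (30.5%), and the difference from WT was called for 0 lower (0.58%) and 0 higher (0.123%) members by edgeR, with 3 and 13 at an unadjusted p under 0.05 and 0 and 1 by DESeq2. Without replicate 3 of impk4 with pep3, 1 was lower and 2 were higher, and without replicate 3 of WT with pep3 1 was higher.

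Under UVB and H2O2 the lines could be compared with WT only in the stimulated state. With UVB, impk36 gave 3 lower (6.1% of all genes) and 11 higher (3.63%) members, and impk4 gave 0 lower (0.403%) and 0 higher (0.294%) by edgeR, with 10 and 4 at an unadjusted p under 0.05 and 2 and 0 by DESeq2. BT2 had 20.0, 15.8 and 18.3 CPM in impk36 and 53.0, 39.0 and 51.4 CPM in WT with UVB (-1.38 ± 0.18). SAUR16 had 16.8, 10.8 and 13.2 CPM in impk36 and 8.65, 5.13 and 7.68 CPM in WT with UVB (0.95 ± 0.18). With H2O2, impk36 gave 5 lower (8.02%) and 2 higher (3.01%) and impk4 gave 4 lower (0.822%) and 1 higher (0.367%). MYBL2 had 21.5, 27.7 and 22.9 CPM in impk36 and 37.3, 45.5 and 35.1 CPM in WT with H2O2 (-0.71 ± 0.12). None of these 3 genes overlapped between the lines. With UVB, impk36 gave 1 lower without WT replicate 3 or impk36 replicate 2, and 7 higher without WT replicate 2 or impk36 replicate 1. With H2O2, impk36 gave 3 lower without its own replicate 3 and 4 higher without WT replicate 3. There impk4 gave 0 lower without WT replicate 2 or its own replicates 1 or 3, 2 without WT replicate 1 and 7 without its own replicate 2, and 0 higher without any 1 of these 5 libraries.

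**Figure D4:**
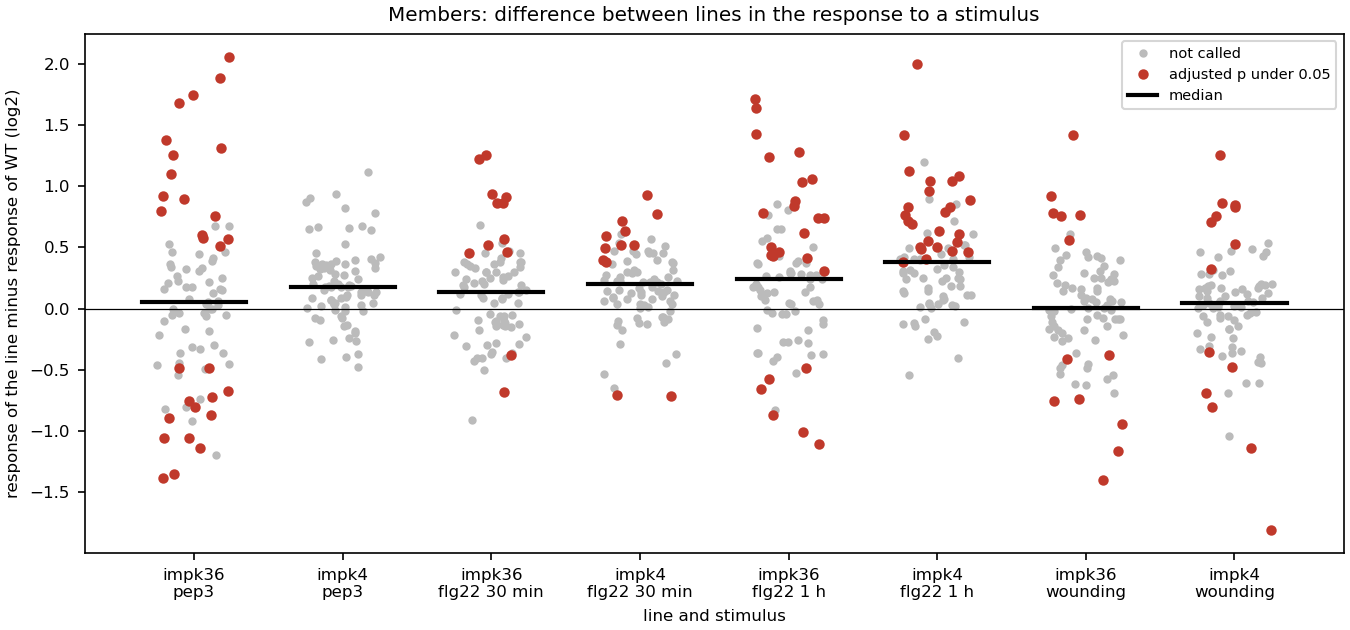
Difference of each member's log2 change in impk36 or impk4 from that in WT, for pep3, flg22 at 30 min and 1 h and wounding, with red points for members past an adjusted p of 0.05 and grey points for the others. In impk4 the red points number 25 at 1 h of flg22, all above 0, where 5.85% of all genes were higher and 4.6% lower. With pep3 they number 0, where 0.123% of all genes were higher and 0.58% lower.

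In adult shoots most members were lower in mpk4 than in untreated impk4 at 0 h: 63 of 81 were lower, where 32.7% of all genes were, and 12 higher, where 45.5% were, with a median of -1.92 and 0.19 over all genes. SQP1 had 1.30, 1.64 and 2.31 CPM in mpk4 and 468, 481 and 450 CPM in impk4 at 0 h (-8.66 ± 0.16). SAUR14 had 24.03, 18.7 and 19.9 CPM in mpk4 and 53.7, 50.03 and 59.95 CPM in impk4 at 0 h (-2.01 ± 0.11). BT2 went the other way, with 170, 206 and 232 CPM in mpk4 and 1.97, 4.31 and 7.38 CPM in impk4 at 0 h (4.85 ± 0.29). The groups of these genes lay apart. All 19 tested light-harvesting genes were lower in mpk4, and so were 7 of 8 type-A regulators.

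Member levels also differed between impk4 at 0 h and after mock spray. The 0 h plants were untreated and the later ones got 1% DMSO, so against 0 h time and spray cannot be told apart. Against 0 h, 57 were lower at 3 h (34.4% of all genes), 62 at 6 h (35.2%), 54 at 12 h (33.4%) and 44 at 24 h (30.7%), and 14 (34.6%), 15 (35.8%), 17 (38.1%) and 20 (32.0%) were higher. Over untreated 0 h and the mock times, the highest mean was at 0 h for 44 of 81 members, and the lowest at 6 h for 28. How many of all genes did so was not counted. SQP1 had 89.9, 80.5 and 68.9 CPM at 3 h, 54.0, 52.4 and 48.9 CPM at 6 h, 8.98, 6.74 and 7.74 CPM at 12 h and 189, 203 and 189 CPM at 24 h. BT2 had 541, 600 and 660 CPM at 12 h and 0.901, 0.920 and 1.53 CPM at 24 h. SQP1 in mpk4 was under all 15 impk4 libraries of these 5 times, while BT2 in mpk4 lay between its levels at 6 h and 12 h.

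The labels do not give the harvest time of mpk4. The clock gene CCA1, named after its values were seen, averaged 1.46 ± 0.64 CPM in mpk4 and 340 ± 31.4 CPM in impk4 at 0 h, with 0.902 CPM at 6 h, and TOC1 averaged 359 ± 14.4 CPM in mpk4 and 11.035 ± 5.25 CPM in impk4 at 0 h, with 233 CPM at 6 h (SD, n = 3 each). Line and time of day therefore cannot be told apart. The share of all tested genes is given in brackets after each count. Against mock at 3 h, mpk4 gave 56 lower (35.1%) and 14 higher (36.8%) members, and against mock at 6 h it gave 40 lower (34.9%) and 21 higher (36.6%). Against mock at 12 h, 43 were lower (33.5%) and 20 higher (35.6%), and against mock at 24 h, 62 were lower (34.8%) and 11 higher (40.3%). The mean in mpk4 was below all 5 untreated and mock means for 25 of 81 members (30.9%), beside 14.3% of all tested genes, and above all 5 for 5 members (6.17%), beside 46% of all tested genes. These comparisons share the mpk4 libraries.

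**Figure D5:**
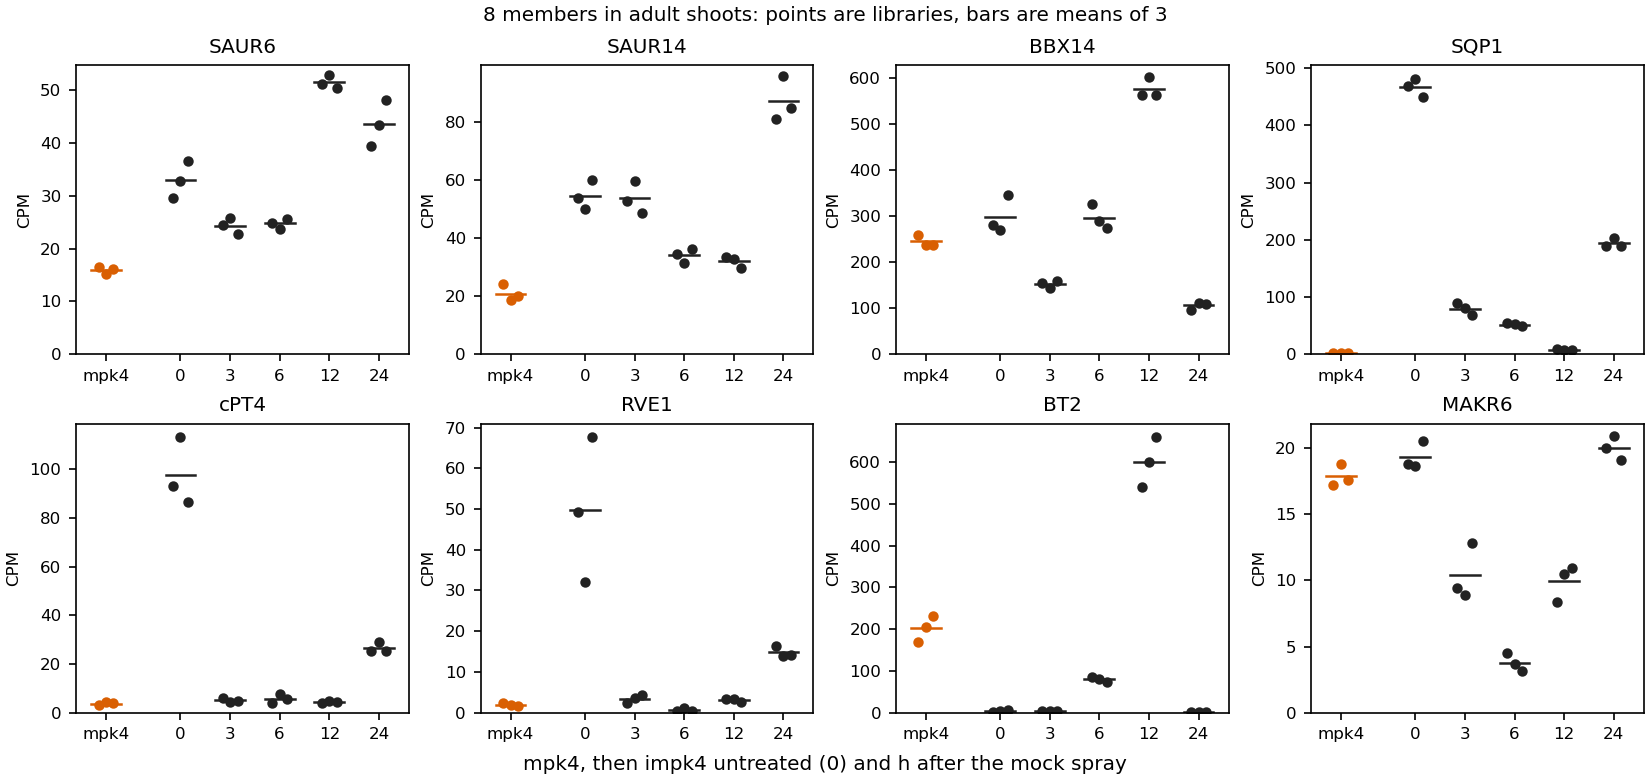
CPM of 8 members in adult mpk4 and in impk4 at 0 h and 3, 6, 12 and 24 h after mock spray, 3 libraries a group. SQP1 in mpk4, at 2.31 CPM or less, is under every impk4 library, whereas BT2 in mpk4 lies inside the range that impk4 covers by time.

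Spraying impk4 with 3MBiP moved few genes of any kind at 3 h. Of all 85 members, 81 of them tested, 5.88% were higher then, beside 0.26% of all genes. At 24 h 12.9% were higher, beside 13.7%. At 3 h 5 were higher (0.26% of all genes) and 0 lower (0.0192%) by edgeR, with 4 lower at an unadjusted p under 0.05 and 0 by DESeq2; at 6 h 9 were higher (3.06%) and 1 lower (3.03%), at 12 h 17 higher (8.48%) and 5 lower (5.71%), and at 24 h 11 higher (13.7%) and 25 lower (11.5%). MAKR6 had 81.1, 68.6 and 77.1 CPM with 3MBiP and 9.45, 8.93 and 12.8 CPM with mock at 3 h (2.94 ± 0.14), and was also higher at 6 h (1.87 ± 0.16) and 12 h (1.89 ± 0.14). At 24 h it had 53.9, 44.3 and 54.7 CPM with 3MBiP and 20.0, 21.0 and 19.1 CPM with mock. It was clear of the mock libraries at all 4 times, as it was with 3MBiP in WT seedlings; in mpk4, which got no 3MBiP, it was at 17.2, 18.8 and 17.6 CPM. BT2 had 37.6, 29.98 and 29.98 CPM with 3MBiP and 0.901, 0.920 and 1.53 CPM with mock at 24 h (4.80 ± 0.34). The 5 higher at 3 h were 3 without replicates 2 or 3 of mock or 1 or 3 of 3MBiP. At 6 h the higher count was 4 without mock replicate 2 or 3MBiP replicate 1, 3 without mock replicate 3 and 5 without 3MBiP replicate 2, and the 1 lower was lost without any mock library or 3MBiP replicates 1 or 3. At 12 h 3 were lower without any mock library or 3MBiP replicate 3, 0 without 3MBiP replicate 1, and 11 were higher without mock replicate 1. At 24 h 16 were lower without 3MBiP replicate 3.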

How the data were processed

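Raw read counts per gene were deposited by the authors for 141 libraries; TopHat, HTSeq and TAIR10 are named per the submitters' processing notes, and their versions and settings are not given in the sources used here. Poly(A) libraries came from a TruSeq kit per the labels' protocols. Lines that name no gene were left out; they held 0.83% to 2.30% of reads with no feature.

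CPM was computed from the counts, and the members were found by the rule given at the opening. Members, roles and lists were chosen with earlier results of these data known. The time course, B1, B2, B3, B4 and the adult set were fitted apart with edgeR 4.0.16 (R 4.3.3; filterByExpr, TMM, robust quasi-likelihood F test, 1 mean per group), with Benjamini-Hochberg adjustment over all 20806 to 21543 genes tested in a set and calls at 0.05. Errors are SE of the log2 change. With 3 libraries against 3, the smallest p of an exact permutation test is 0.1, and the test of a single gene therefore uses the spread shared across genes. The scripts were tested on simulated data. Tests compare libraries within a set, and levels of different sets stand side by side only as a description.

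Genes are named by rule: the 10 lowest at 30 min, the 2 on each side of the limit, and per comparison up to 4 lower and 3 higher members by fold, past the threshold and with no overlap; members of the family lists and the kinase genes are added, and others serve as contrasts chosen after their values were seen. DESeq2 1.42.0, other scaling, no filter, a replicate block, only the groups compared and leaving out a library were alternatives. Same-numbered replicates deviated together, with every correlation over 0.1, for WT flg22 at 1 h against 30 min, impk4 against WT under UVB, and adult mock 3 h against 0 h; the block moved no count there by over 1.5 times.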

Additional observations from a re-analysis of the deposited data

Results flagged for a closer look

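The responses of the kinase lines are listed for a closer look because the change in a line was tested against the change in WT and the difference passed the threshold for some members. The share of all tested genes follows each count as a percentage. With pep3, 13 members had a lower (8.48%) and 16 a higher (7.66%) response in impk36 than in WT. CRF5 (-1.39) and PKS4 (2.05) were at the ends. PKS4 rests on 36 to 46 reads a library in impk36 and 12 to 21 in WT with pep3. After 30 min of flg22, impk36 gave 2 lower (4.14%), led by RVE1 (-0.69), and 10 higher (2.46%), led by KMD4 (1.26). After 1 h, impk36 gave 6 lower (6.86%), with MAKR6 at -1.0, and 19 higher (8.27%), led by MIR167d (1.71). The WT libraries held 4, 0 and 5 reads of MIR167d. Wounding gave 7 lower (3.77%) in impk36, led by RD26 (-1.40), and 6 higher (1.68%), led by PYL6 (1.42).

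For impk4, flg22 at 30 min gave 2 lower (2.23%), led by RVE1 (-0.71), and 10 higher (0.98%), led by SAUR6 (0.93). At 1 h 25 were higher (5.85%), led by CAX7 (2.00). Wounding gave 6 lower (4.36%), led by CIPK20 (-1.81), and 8 higher (3.66%), led by PYL6 (1.26). No difference between impk36 and impk4 was tested. In every pair the WT libraries are shared.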

How the results depend on the processing

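Of 1108 counts of members under alternatives, 997 were within 1.5 times the reported count; the cause of the others was not tested. With only the groups compared in the fit, 3MBiP in WT gave 11 lower, the wounding difference gave 11 higher in impk36 and 5 in impk4, impk4 with H2O2 gave 10 lower and 3 higher, and adult 3MBiP gave 1 lower at 3 h and 2 lower and 18 higher at 6 h. With DESeq2, impk4 with H2O2 gave 11 lower and 3 higher, impk4 with UVB 2 lower and the impk4 difference with pep3 1 higher. The lower difference at 30 min of flg22 was 1 in impk36 and in impk4 with DESeq2, with no filter and with only the groups compared. With no filter adult 3MBiP at 6 h gave 0 lower. With the replicate block, impk36 without stimulus in B1 gave 1 higher, impk36 with H2O2 4 higher, impk4 with H2O2 7 lower and 2 higher, and the impk4 difference with pep3 1 higher; the pairing holds for none of these, and the block changed no other count by over 1.5 times.

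Against mock at 6 h, mpk4 gave 40 lower (34.9% of all tested genes) and 21 higher (36.6%), and against mock at 12 h 20 higher (35.6%); the comparisons with 3, 6 and 12 h were chosen after seeing the data. Directions reversed for CIPK20 (4.67, mock at 12 h with 0, 2 and 0 reads), RVE1 (1.27, 6 h), BT2 (-1.69, 12 h), PYL6 (-0.45, 12 h) and BT4 (-0.26 at 6 h and -0.33 at 12 h).

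Leaving out 1 library at a time gave fewer lower members at 15 min against 5 min, and fewer higher members at 60 min against 15 min. In B1 it gave 3 to 6 lower with 3MBiP, and in impk36 without stimulus 1 to 4 lower and 0 to 1 higher; the impk4 difference with pep3 gave 0 to 1 lower and 0 to 2 higher. In B2, impk36 at 30 min gave 3 to 7 higher, its difference 0 to 2 lower and that of wounding 4 to 8 lower; impk4 without stimulus gave 12 to 20 higher, its difference 0 to 1 lower and 6 to 10 higher at 30 min, 16 to 24 higher at 1 h and 3 to 13 higher with wounding. With UVB impk36 gave 1 to 4 lower and 7 to 10 higher. With H2O2 impk36 gave 3 to 6 lower and 2 to 4 higher, and impk4 0 to 7 lower and 0 to 1 higher. Adult 3MBiP gave 3 to 5 higher at 3 h, 0 to 1 lower and 3 to 10 higher at 6 h, 0 to 5 lower and 11 to 16 higher at 12 h, and 16 to 25 lower at 24 h. Of 3136 values of named genes, 2957 kept direction and call, 173 lost the call and 6 reversed. Of 263 results, each a named gene in 1 comparison, 36 lost the call without 1 library. Depth limits MIR167d after flg22, PYL6 with ABA and CIPK20 at 12 h, which rest on a few reads.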
